A study of Mus musculus with 23 samples.

Results

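Described here are 9 globin and erythroid genes in RNA sequencing of sorted cells from the growing base of the mouse lower incisor. They were Hbb-bs and Hbb-bt, Hba-a1 and Hba-a2, Alas2, Slc4a1, Epb42, Klf1 and Gata1, taken by name from a count table of 54347 genes. The genes were chosen by their measured levels across the 2 sorted populations and 2 batches, so those levels are given as a description, with no test.

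Cells came from the labial cervical loop of lower incisors at postnatal day 2, in a mouse line whose green fluorescent protein follows the endogenous Sox2 promoter. They were dissociated with Collagenase and Neutral Protease and sorted by fluorescence into Sox2-positive cells, the dental epithelial stem cells of the labels, and Sox2-negative cells, which are the other cells of the dissected tissue. Both populations were prepared on 2 separate days with different mice, called batch A and batch B, which gave 6 Sox2-negative and 6 Sox2-positive libraries in batch A, and 4 Sox2-negative and 7 Sox2-positive libraries in batch B. All groups share the reporter line, the age and the Smart-seq2 library method, which copies whole transcripts from small amounts of RNA, and the labels name no treatment. The labels do not say whether libraries of 1 batch came from separate mice, so each SD and p-value measures the spread between libraries, which may be technical.

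Haemoglobin is built from alpha-globin and beta-globin chains, each carrying a haem group. Its genes are switched on in erythroid precursors by Gata1, the zinc finger factor that binds GATA sites, and by Klf1, a factor that binds CACCC boxes. Alas2 makes the erythroid form of the first enzyme of haem synthesis, Slc4a1 is the band 3 anion exchanger of the red cell membrane, and Epb42 is protein 4.2, which ties band 3 to the membrane skeleton. As red cells mature they lose the nucleus and stop transcription, while globin mRNA persists in reticulocytes.

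The 250 bases before the transcription start are shown for the 4 globin genes and Alas2, the 5 genes whose Sox2-negative libraries were higher in batch B than in batch A without overlap. Sequences and their transcription starts are RefSeq's, on GRCm38.p6, read 5′ to 3′ on the gene's own strand. The gene spans given below are those of GENCODE M21, which begin further upstream for these 5 genes. Each window therefore lies partly inside its gene span. Capitals mark the core GATAA of a GATA site, the CACCC box with the letters CACCC, the CCAAT box with the letters CCAAT, and ATATAA as a form of the TATA box. Both strands were searched, and a match on the other strand is printed as its reverse complement. No match overlapped another in the windows shown. The windows lie at chr7:103827929-103828178 on the minus strand (Hbb-bs), chr7:103813924-103814173 on the minus strand (Hbb-bt), chr11:32283422-32283671 on the plus strand (Hba-a1), chr11:32296242-32296491 on the plus strand (Hba-a2) and chrX:150547167-150547416 on the plus strand (Alas2).
Hbb-bs: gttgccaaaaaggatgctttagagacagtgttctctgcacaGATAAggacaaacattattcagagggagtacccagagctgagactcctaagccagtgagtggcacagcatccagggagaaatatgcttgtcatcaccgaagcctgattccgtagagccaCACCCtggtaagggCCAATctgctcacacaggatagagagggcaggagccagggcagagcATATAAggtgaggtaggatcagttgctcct
Hbb-bt: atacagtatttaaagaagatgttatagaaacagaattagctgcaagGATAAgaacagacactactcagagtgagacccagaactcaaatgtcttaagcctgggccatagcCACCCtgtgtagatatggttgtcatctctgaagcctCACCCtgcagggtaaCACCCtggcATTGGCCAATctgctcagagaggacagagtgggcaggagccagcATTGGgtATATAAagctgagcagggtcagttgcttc
Hba-a1: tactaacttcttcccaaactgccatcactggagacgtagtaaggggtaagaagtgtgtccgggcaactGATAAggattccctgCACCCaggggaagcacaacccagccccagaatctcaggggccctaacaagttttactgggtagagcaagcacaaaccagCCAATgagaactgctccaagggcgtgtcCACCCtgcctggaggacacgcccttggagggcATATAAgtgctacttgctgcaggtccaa
Hba-a2: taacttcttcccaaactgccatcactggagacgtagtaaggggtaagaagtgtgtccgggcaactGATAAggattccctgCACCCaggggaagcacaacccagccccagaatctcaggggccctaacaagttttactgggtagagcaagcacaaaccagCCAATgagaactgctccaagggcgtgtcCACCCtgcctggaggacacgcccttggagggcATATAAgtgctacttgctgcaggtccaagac
Alas2: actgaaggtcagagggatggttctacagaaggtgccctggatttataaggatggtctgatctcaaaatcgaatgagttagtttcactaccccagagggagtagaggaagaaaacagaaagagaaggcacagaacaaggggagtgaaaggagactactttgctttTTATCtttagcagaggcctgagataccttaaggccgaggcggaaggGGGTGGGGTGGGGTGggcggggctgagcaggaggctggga

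All 4 globin windows held each of the 4 motifs, a combination found in 153 of 32851 mouse promoter windows of the same length (0.466%). GATAA was present in 7 of the 8 members with an entry and in 22.6% of all windows, CACCC in 7 of 8 and 52.0%, CCAAT in 5 of 8 and 33.8%, and ATATAA in 4 of 8 and 9.10%. In Hbb-bs the match to the CACCC box began 90 bases before the start, that to the CCAAT box 76 and that to the TATA box 30. The Alas2 window carried GATAA and 3 adjoining CACCC matches, all on the opposite strand, and neither CCAAT nor ATATAA. Hba-a1 and Hba-a2 shared an unbroken run of 247 bases (97.6% identity over the aligned windows), whereas the longest run shared by Hbb-bs and Hbb-bt was 14 bases (68.4% identity). A match is a stretch of letters and not a measured binding site.

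Near-identical copies also bear on the counts. Of the 31-base words in annotated transcripts, Hba-a2 shared 92.6% with Hba-a1 and Hbb-bt shared 59.4% with Hbb-bs, so the split of reads within each pair rests on the quantification and is uncertain. Alas2 overlaps Apex2 on the opposite strand, and reads from the shared stretch cannot be told apart because the sources used here name no strand setting. Total counts per library ran from 2305778 to 9541443, and 3 counts corresponded to 0.314 to 1.30 CPM, the smallest level treated as detected. CPM is the count scaled to a common library total after TMM scaling, a method that corrects for a few genes taking a large share of the reads. Floors and counts cover counting error only. Sox2 itself had 14 to 64 counts in batch A Sox2-positive libraries and 37 to 121 in batch B, against 0 or 1 in batch A Sox2-negative libraries and 0 in 3 of 4 batch B Sox2-negative libraries, where replicate 1 had 10.

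The globin genes were abundant in the Sox2-negative cells of batch B, 52.0-fold lower in those of batch A, and near the limit of detection in both Sox2-positive groups. Together they took 5.05% ± 0.187 of all counts in batch B Sox2-negative libraries (SD, n = 4) and 0.108% ± 0.00743 in those of batch A (n = 6). In Sox2-positive libraries the share was 0.000329% ± 0.000107 in batch A (n = 6) and 0.000428% ± 0.000456 in batch B (n = 7). In these bulk libraries, fewer erythroid cells and less globin mRNA per cell cannot be told apart.

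Hbb-bs, an adult beta-globin gene, lies at chr7:103826534-103828096 (GRCm38, minus strand). Its levels in the 4 batch B Sox2-negative libraries were 14978, 16206, 15435 and 15133 CPM, and those of the 6 batch A Sox2-negative libraries had a lowest value of 215, a median of 257 and a highest value of 365 CPM. In Sox2-positive libraries it ranged from 0 to 1.11 CPM in batch A (median 0.298) and from 0 to 3.54 CPM in batch B (median 0.727). The 2 Sox2-negative groups did not overlap each other or any Sox2-positive library, and the Sox2-positive groups overlapped. The mean of batch B was 58.5 times that of batch A in Sox2-negative cells.

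Hbb-bt, the second adult beta-globin gene of the cluster (chr7:103812524-103813996, minus strand), followed the same order at a lower level. The batch B Sox2-negative libraries had 3762, 4180, 4689 and 4258 CPM. Those of batch A had a lowest, median and highest level of 81.1, 96.1 and 105 CPM, and the ratio of the means was 44.7. No Sox2-positive library exceeded 0.920 CPM, and 4 of 6 in batch A and 4 of 7 in batch B had no count.

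Hba-a1 (chr11:32283511-32284465, plus strand) and Hba-a2 (chr11:32296489-32297298, plus strand) are the adult alpha-globin genes. Hba-a1 measured 16481, 17603, 15571 and 15513 CPM in the Sox2-negative libraries of batch B, and a lowest, median and highest level of 339.9, 374 and 409 CPM in batch A, a ratio of means of 43.0. Hba-a2 measured 21449, 23591, 17981 and 18454 CPM in batch B, with 311, 349.6 and 368 CPM as the lowest, median and highest in batch A, a ratio of 58.9. For both genes replicates 1 and 2 of batch B were above replicates 3 and 4, and every library of batch B was above every library of batch A. In Sox2-positive cells Hba-a1 reached at most 3.82 CPM and Hba-a2 at most 5.05 CPM.

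The few globin counts of Sox2-positive cells in batch B were unevenly spread. Replicates 1, 2 and 3 had 67, 52 and 54 counts summed over the 4 genes, and replicates 4 to 7 had 6, 4, 1 and 0. In batch A the 6 Sox2-positive libraries had 9 to 22 globin counts each. Replicates 1 to 3 thus held 173 of the 184 globin counts of this group.

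Alas2 (chrX:150547375-150570638, plus strand) separated the batches like the globin genes, but its level in batch A rested on part of the libraries. Sox2-negative libraries of batch B measured 366.7, 449, 258 and 246 CPM. In batch A Sox2-negative libraries the lowest, median and highest levels were 0, 1.84 and 13.4 CPM, from counts of 43, 0, 8, 6, 64 and 0 in replicates 1 to 6. The ratio of the means was 70.0 and became 111 without replicate 5 of batch A. Levels in Sox2-positive cells, 0 to 4.23 CPM in batch A and 0 to 2.91 CPM in batch B, overlapped those of batch A Sox2-negative cells.

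Slc4a1 (chr11:102348824-102366203, minus strand) did not follow the globin genes between batches. Its level in batch A Sox2-negative libraries had a lowest value of 2.52, a median of 6.63 and a highest value of 12.4 CPM, and the 4 batch B libraries had 4.04, 5.40, 4.08 and 8.16 CPM. The groups overlapped, and the mean of batch B was 0.769 times that of batch A. It was detected in every Sox2-negative library with 12 to 48 counts, in 1 of 6 batch A Sox2-positive libraries (10 counts) and in none of the 7 of batch B. The batch B Sox2-negative mean was 61.9 times the floor of 3 counts over that whole Sox2-positive group.

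Epb42, Klf1 and Gata1 were at or near the floor in most libraries. Gata1 (chrX:7959260-7978071, minus strand) had 63 and 40 counts in replicates 1 and 5 of the batch A Sox2-negative group, 16.3 and 8.40 CPM, and 0 in the other 4. In batch B Sox2-negative libraries it had 11 counts in replicate 2 and 0 in the rest. Among 13 Sox2-positive libraries a single count was found, in batch B.

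Klf1 (chr8:84901928-84905291, plus strand) had 3, 0, 1, 0, 20 and 0 counts in batch A Sox2-negative libraries and 0, 8, 0 and 2 in those of batch B. Epb42 (chr2:121017891-121037072, minus strand) had 2, 0, 0, 0, 10 and 0 counts and 1, 0, 1 and 2 counts. Batch A replicate 5 therefore held the highest level of Alas2, Klf1 and Epb42 in its group and the second highest of Gata1. The same library had the lowest Slc4a1 (2.52 CPM), Hba-a1 (339.9 CPM), Hba-a2 (311 CPM) and globin sum (969 CPM) of its group. In Sox2-positive libraries Klf1 had 1 to 7 counts in all 7 of batch B and 10 counts in 1 of 6 in batch A, so its level there overlapped that of Sox2-negative cells.

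**Figure D1:**
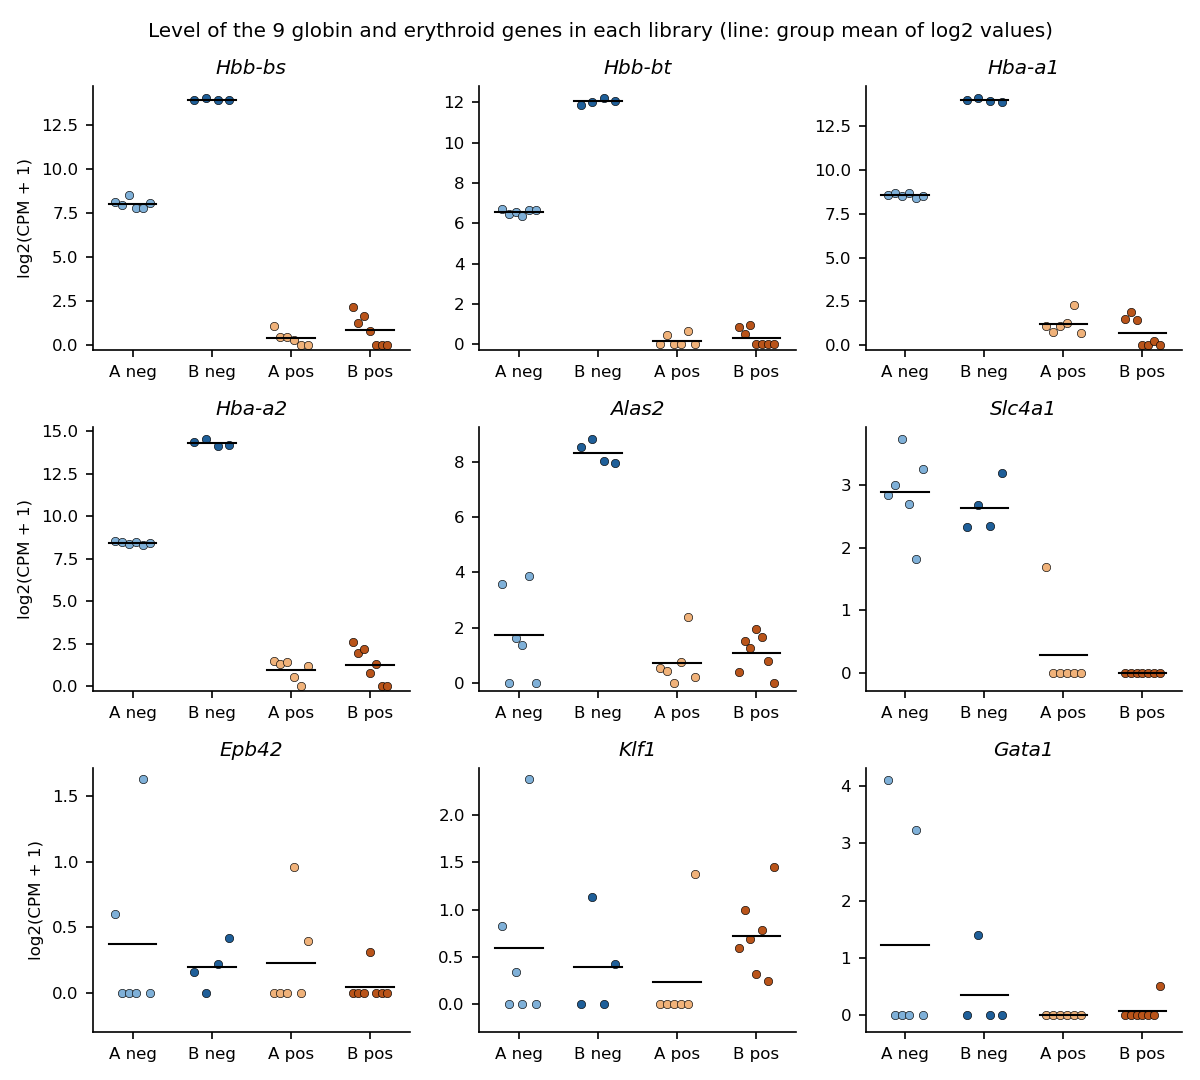
Level of each of the 9 genes by library as log2(CPM + 1), with points for libraries, lines for the group mean of the log2 values and separate vertical scales; A and B are the batches, neg and pos the Sox2-negative and Sox2-positive cells. The 4 globin genes and Alas2 stand highest in all 4 batch B Sox2-negative libraries, Slc4a1 overlaps between the batches, and Epb42, Klf1 and Gata1 are at 0 in many libraries.

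In counts of genes, 5 of the 9 were higher in every Sox2-negative than in every Sox2-positive library in batch A, where 14.3% of 17190 tested genes were so. In batch B the number was 6 of 9 beside 20.3% of genes. Between batches within Sox2-negative cells, 5 of 9 were higher in every batch B library beside 4.56% of genes. The members were chosen with these contrasts known, so nothing is read from the difference. A filter on low counts was passed by 5 members in the batch A comparison and by 6 in the others, and Epb42, Klf1 and Gata1 passed it in none.

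Per kilobase of transcript, the mean level in batch B Sox2-negative cells was highest for Hba-a2 at 36767 CPM per kilobase, then 24583 for Hbb-bs, 23307 for Hba-a1 and 6006 for Hbb-bt. Alas2 followed at 162 and Slc4a1 at 1.19 CPM per kilobase. The lengths used were those of the longest annotated coding transcript, 554 bases for Hba-a2, 628 for Hbb-bs, 699 for Hba-a1 and 703 for Hbb-bt. Values for Hbb-bs and Hba-a1 lay close together, and before division by length their order was the reverse (15438 and 16292 CPM). The order within each pair of copies also carries the uncertainty of splitting reads described above.

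The make-up of the erythroid counts differed between batches in some ratios and overlapped in others. Alpha-globin genes took 67.0% ± 3.88 of globin counts in the Sox2-negative libraries of batch A (SD, n = 6) and 65.0% ± 2.26 in batch B (n = 4), with overlapping ranges. Hbb-bs took 73.3% ± 3.60 and 78.5% ± 1.47 of beta-globin counts, again overlapping, since batch A replicate 3 reached 79.7%. Hba-a1 took 50.5% to 53.4% of alpha-globin counts in batch A and 42.7% to 46.4% in batch B, without overlap, a split that rests on reads shared by near-identical copies.

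Relative to globin, Slc4a1 was scarcer in batch B. It had 6.39 ± 2.72 counts per 1000 globin counts in the Sox2-negative libraries of batch A (SD, n = 6) and 0.0970 ± 0.0379 in batch B (n = 4), and the ranges, 2.60 to 10.6 and 0.0713 to 0.153, did not overlap. Alas2 had 4.52 ± 5.90 and 5.79 ± 1.30 counts per 1000 globin counts, and the 4 batch B values fell inside the range of batch A. The batch A values ran from 0 to 13.9 with a median of 1.65, 2 of the 6 libraries were at 0, and the mean fell to 2.65 without replicate 5.

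**Figure D2:**
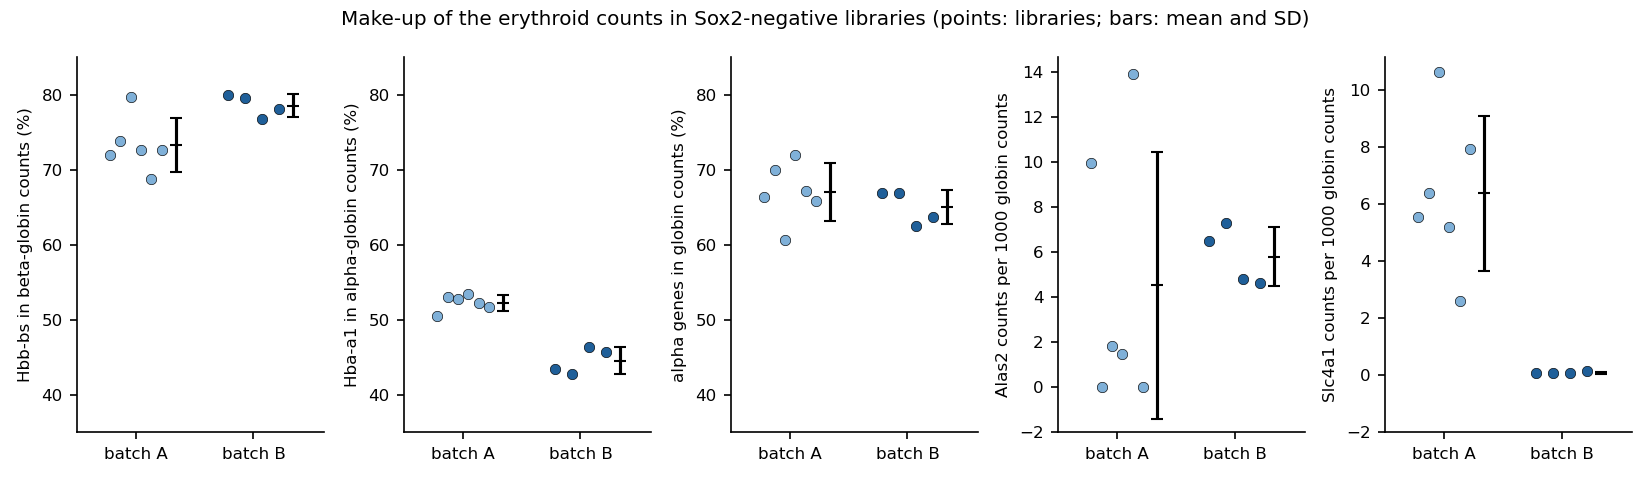
Make-up of erythroid counts in Sox2-negative libraries of batch A (n = 6) and batch B (n = 4): points are libraries and bars the mean and SD, and the percentage axes start above 0. The share of Hba-a1 in alpha-globin counts and the Slc4a1 ratio do not overlap between batches, and the other 3 quantities do.

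Other genes of erythroid cells were read from 8 lists of 80 genes, of which 79 were found in the table and 64 passed the filter in the 4-group fit. Between batches within Sox2-negative cells, edgeR's quasi-likelihood test with Benjamini-Hochberg adjustment called 12 of the 64 higher in batch B and 2 lower, beside 11.2% of all 17190 genes (5.85% higher and 5.35% lower). With totals not scaled by TMM the split was 9 higher and 4 lower, and over all genes 661 higher and 1388 lower in place of 1005 and 919, with the median of all genes at -0.15 on the log2 scale. With TMM scaling the median log2 difference of the 64 list genes was -0.10, beside -0.004 for all genes tested. Batch stands for day and mice together, which cannot be told apart here.

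On the terminal maturation list 4 of 8 tested genes were higher and none lower. Those named were chosen after their values were seen. Tent5c, a poly(A) polymerase, measured 87.8, 64.1, 82.8 and 73.6 CPM in the Sox2-negative libraries of batch B and 0 to 8.89 CPM in those of batch A (median 4.91), a log2 fold change of 4.21 ± 0.63 (SE; edgeR adjusted p = 4.44e-05). Its groups did not overlap. The ubiquitin-conjugating enzymes Ube2l6 and Ube2o were higher by 2.34 ± 0.37 and 1.35 ± 0.36, and the call for Ube2o was lost without replicate 1 of batch B Sox2-negative cells (edgeR adjusted p = 0.0574), while Bnip3l, Bcl2l1, Xpo7 and Mxi1 were not called.

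Of the haem synthesis genes, 1 of 11 was called: Fech, ferrochelatase, which inserts iron into the porphyrin ring, averaged 149.8 ± 49.1 CPM in batch B and 56.4 ± 32.6 CPM in batch A Sox2-negative libraries (log2 fold change 1.41 ± 0.31). Tmem14c and Ppox, which act in the same pathway, differed by -0.10 and -0.44 on the log2 scale and were not called. Of the iron handling genes, the transferrin receptor Tfrc and the mitochondrial iron importer Slc25a37 were higher, both by 0.87. The call for Tfrc was lost without replicate 3 of batch A or replicate 1 or 2 of batch B (edgeR adjusted p 0.0554 to 0.0995), and that for Slc25a37 without replicate 2, 3 or 4 of batch A or any 1 of the 4 of batch B (0.0546 to 0.10), all Sox2-negative. The ferritin light chain Ftl1 was lower by a log2 fold change of -0.47, and its partner Fth1 was not called at -0.25.

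Among red cell membrane genes 1 of 12 was called: Epb41, protein 4.1, rose to 117 ± 9.04 CPM in batch B from 46.95 ± 11.6 CPM in batch A. Dmtn, Aqp1 and Gypc were not called, with log2 values of 0.15, -0.61 and 0.09.

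Of 11 erythroid transcription factor genes tested, Bcl11a and Ldb1 were higher by 0.78 and 0.60, and Lmo2, a bridging protein of the Gata1 complex, was lower by a log2 fold change of -2.48 ± 0.59. The call for Ldb1 was lost without Sox2-negative replicate 2, 3 or 5 of batch A or 1, 2 or 4 of batch B, and without Sox2-positive replicate 5 or 6 of batch A (edgeR adjusted p 0.0502 to 0.14). Tal1, another factor of that complex that was named after its values were seen, had -1.80 and was not called. None of the 5 erythropoietin signalling genes was called, and the receptor Epor had 1.30 (edgeR adjusted p = 0.0533). Of 7 red cell enzyme genes, Prdx2 and Bpgm were higher by 0.78 and 1.57 and Gpx1 and Cat were not called. Without both batch B libraries numbered 1 and 2, the calls for Lmo2, Tfrc, Slc25a37, Ldb1 and Ube2o were lost. Those for Tfrc, Slc25a37 and Ldb1 were also lost with totals not scaled by TMM. The highest edgeR adjusted p over the alternatives was 0.391 for Tfrc, 0.257 for Slc25a37, 0.432 for Ldb1 and 0.249 for Ube2o. Calls for 9 of the 14 called genes held under all 32 alternatives.

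**Figure D3:**
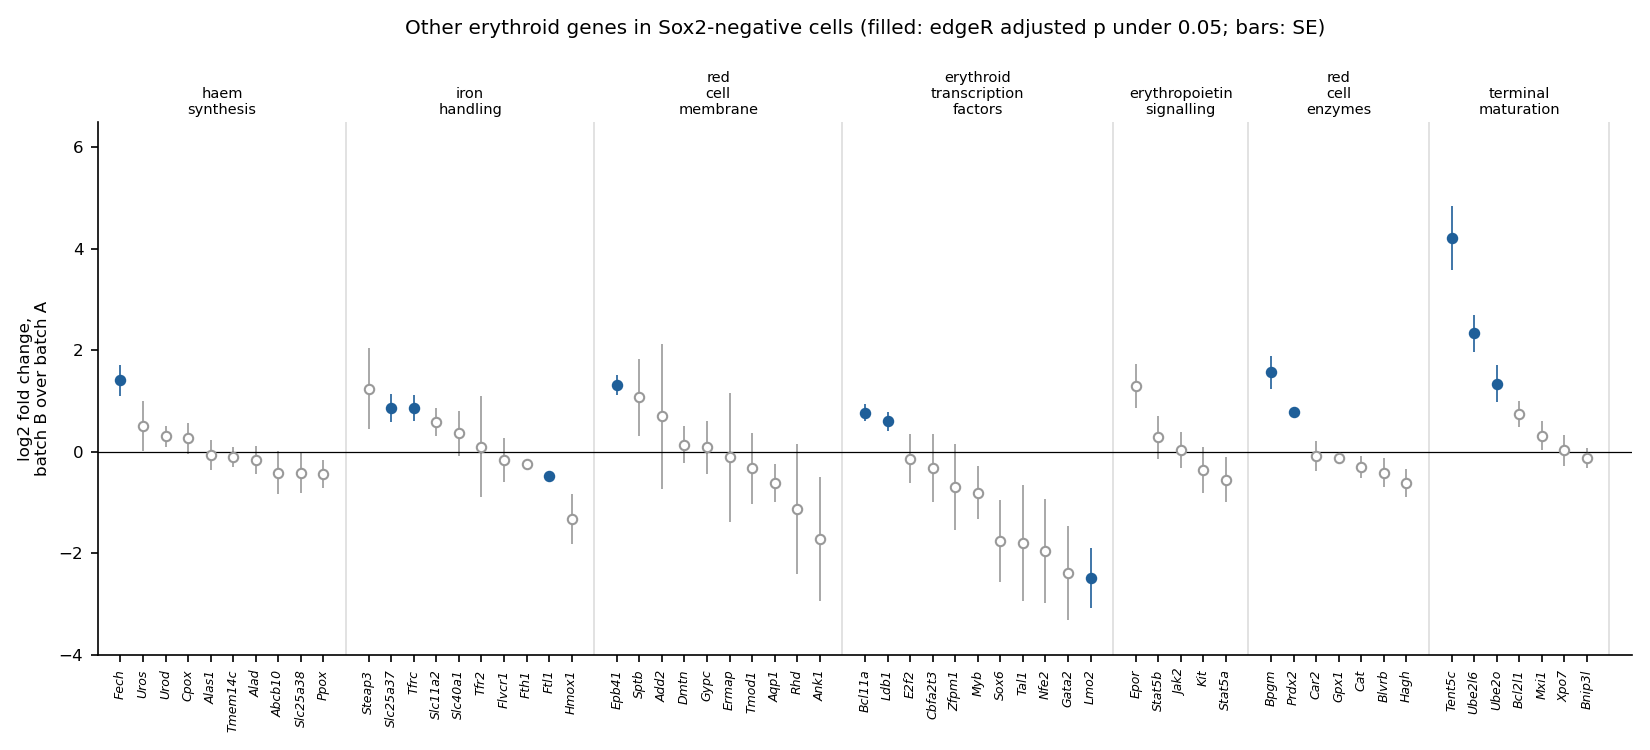
Log2 fold change of batch B over batch A in Sox2-negative cells for 60 of the 64 tested genes of 7 erythroid lists, with bars for the standard error and filled points for genes called by edgeR. Of the genes plotted, Tent5c (4.21) stands highest and Lmo2 (-2.48) is the lowest called.

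Of the globin genes outside the 9, none passed the filter. The embryonic beta-like gene Hbb-y had 1 to 20 counts in every batch A Sox2-negative library and none in either group of batch B. Batch A Sox2-positive libraries had 0 to 5 counts of Hbb-y, with a median of 0.571 CPM beside 0.482 CPM in Sox2-negative ones, near the floor. Hba-x, the embryonic alpha-like gene, reached 12 counts in Sox2-negative and 3 in Sox2-positive libraries of batch A. Hbq1a and Hbq1b, theta-globin genes, were at 0 in all 6 batch A Sox2-negative libraries and had 6 to 27 and 1 to 26 counts in those of batch B.

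Between the sorted populations, 27 of 58 list genes were called in batch A (10 higher and 17 lower in Sox2-positive cells), beside 43.4% of all genes (19.3% higher and 24.2% lower). In batch B 38 of 60 were called (12 higher and 26 lower), beside 54.7% of all genes (27.1% higher and 27.6% lower). Many of these genes act in cells of every kind: 36 of 79 averaged at least 10 CPM in both Sox2-positive groups, including 11 of 11 haem synthesis genes and 3 of 15 membrane genes. Slc25a37 was lower in Sox2-positive cells in batch A and batch B (log2 fold changes -2.38 and -2.65), and so were Gypc (-2.02 and -6.14) and Epb41 (-0.81 and -1.59), whereas Bcl11a was higher in each (1.08 and 0.81).

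The test of whether the population difference itself differed between batches called 12 of 64 list genes (4 higher and 8 lower), beside 7.04% of all genes (2.82% higher and 4.22% lower), and 7 without batch B libraries 1 and 2. Among the lowest values were those of Tent5c (-4.95), which was not called in batch A (0.60) and was lower in Sox2-positive cells in batch B (-4.25), and of Gypc (-4.14). These comparisons share libraries with the comparison between batches and give no separate evidence.

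Markers of mast cells, neutrophils, macrophages and endothelium had lower summed levels in batch B than in batch A Sox2-negative libraries, opposite to globin. The summed level of 10 mast cell markers was 874 to 1070 CPM in batch A and 28.0 to 50.9 CPM in batch B, and 4 of 6 tested were lower in batch B. For neutrophils the sum of 8 markers was 3717 to 4493 CPM against 534 to 607 CPM, with 7 of 8 lower, and for 6 endothelial markers it was 638 to 909 CPM against 138 to 233 CPM, with 6 of 6 lower. Macrophage markers summed to 781 to 875 CPM against 139 to 191 CPM, with 2 of 6 lower. Over all 17190 genes tested, 5.35% were called lower and 5.85% higher in batch B. The 10 megakaryocyte and platelet markers overlapped with means of 66.6 ± 14.5 CPM against 67.1 ± 17.2 CPM (SD), and 4 of them were at 0 in all batch A Sox2-negative libraries. Basophil and eosinophil markers summed to 3.43 to 33.3 CPM in batch A and 0.326 to 3.45 CPM in batch B. Mesenchymal markers overlapped at 6885 to 8133 CPM against 6263 to 7950 CPM, with 1 of 4 higher and 1 lower. Epithelial markers were at 118 to 198 CPM against 256 to 299 CPM, without overlap, and 1 of 4 was called higher. The part of these cell types in the erythroid differences was not tested.

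**Figure D4:**
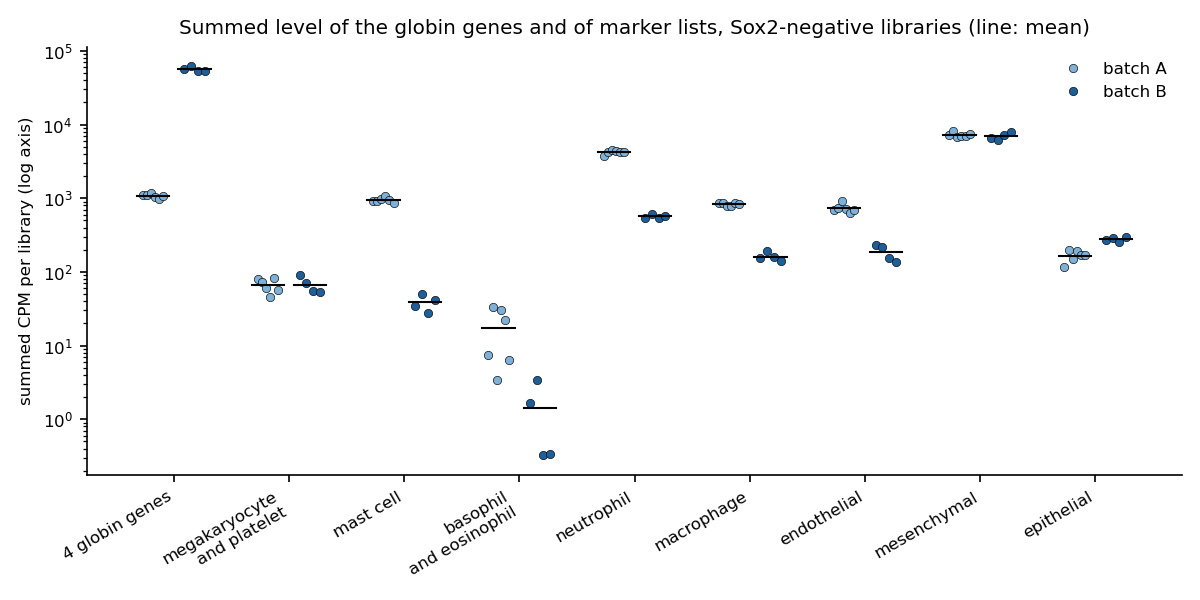
Summed CPM (log axis) of the 4 globin genes and of 8 marker lists in each Sox2-negative library, with lines for the mean of batch A (n = 6) and batch B (n = 4). Globin and epithelial sums stand above in all 4 batch B libraries, and mast cell, neutrophil, macrophage and endothelial sums stand below.

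The genes whose level across the 23 libraries was most like the globin sum included no gene of the erythroid lists. By Pearson's r on log2 CPM over 17190 genes, the 10 highest included Col6a5 (0.976), Gm34030, Gm26716, Fgf10, Tpt1, Foxd1, Gm11373, Lrrc15 and Hnrnpa3 (0.956). Over the 10 Sox2-negative libraries alone the highest was Sfrp2 (0.994), and none of the 10 highest was shared with the first list. These points fall into a few groups by population and batch, so the values describe the groups. For Gata1 the highest were Camk2a (0.742), 3110080O07Rik, AC170998.1, Slc2a6 and Uvrag, and for Klf1 Gm49201 (0.739), Trdc, Zfp651, Gm6548 and Mertk, both from genes that are at 0 in many libraries.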

How the data were processed

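RNA sequencing of sorted mouse incisor cells was analysed in 23 libraries. The deposited table holds expected counts (estimated counts) per gene, made by the authors with Salmon after FastQC and Trimmomatic on mm10, per the submitters' processing notes. The annotation is not given in the sources used here. Only 0.000436% of nonzero values were whole within 1e-06, and values were rounded for count tests.

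Symbols came from GENCODE M21 (54094 of 54347 identifiers, 99.5%), with older symbols matched through RefSeq, and gene coordinates are on GRCm38, the assembly that mm10 denotes. Ahsp was not matched and is not analysed here. Promoter windows had an entry for 8 of the 9 genes, Slc4a1 being the one without.

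Tests used edgeR 4.0.16 (R 4.3.3): TMM scaling, filterByExpr with a minimum count of 10, quasi-likelihood, two-sided, Benjamini-Hochberg adjustment over all genes tested, called at an adjusted p under 0.05. Population differences were fitted within each batch, and the interaction and the batch difference on 4 group means. The fits were tested on simulated data. Alternatives were DESeq2 1.42.0, limma-voom (limma 3.58.1), other scalings and filters, thinned counts, left-out libraries and a replicate block. Libraries sharing a number in the 2 populations were checked for pairing from their deviations and did not deviate together.

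Members and lists were chosen with earlier results of these data known. Named were the members, the 4 genes of each list with the highest mean CPM, list genes called against most of their list, and the 10 (or 5) genes most like globin (or Gata1 and Klf1). Others were named after their values were seen, and a few list genes are not reported here although they are included in the counts.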

Additional observations from a re-analysis of the deposited data

Results flagged for a closer look

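A library far from the others was looked for in 50 groups (each of the 9 genes in each group of libraries, and ratios to globin). Such a library was found in 15. The rule's rate of about 1 in 20 is for continuous values. It does not hold where all libraries but 1 are at 0, because that library is then always flagged. All flags but that for Hbb-bs in batch A Sox2-negative libraries were in groups at or near 0. The flags for ratios repeat flags by CPM of the same genes and libraries.

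In batch A Sox2-negative libraries, replicate 3 stood high for Hbb-bs at 365 CPM. Replicate 5 of that group stood high for Epb42 at 2.10 CPM and Klf1 at 4.20 CPM, and per 1000 globin counts for Epb42 at 2.17 and Klf1 at 4.34. In batch B Sox2-negative libraries, replicate 2 stood high for Gata1 at 1.65 CPM and at 0.0268 counts per 1000 globin counts.

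In batch A Sox2-positive libraries, replicate 1 stood high for Hbb-bs at 1.11 CPM and Slc4a1 at 2.21 CPM, and replicate 5 for Hba-a1 at 3.82 CPM and Alas2 at 4.23 CPM. Replicate 4 had 0.949 CPM of Epb42 and replicate 6 had 1.59 CPM of Klf1. In batch B Sox2-positive libraries, replicate 4 had 0.242 CPM of Epb42 and replicate 7 had 0.432 CPM of Gata1.

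The difference between populations differed between batches, by the interaction test of edgeR, for 12 erythroid list genes. Among them it was, on the log2 scale as batch B minus batch A, -1.42 for Fech, 0.58 for Ftl1, -4.14 for Gypc, 2.88 for Lmo2, -0.82 for Prdx2, -2.17 for Bpgm, -2.25 for Ube2l6, -4.95 for Tent5c and -1.14 for Bcl2l1. The values of 8.58 for Ank1 and 4.96 for Tmod1 rest on a batch A Sox2-positive group with Ank1 at 0 in all 6 libraries and Tmod1 at 0 in 4 of them, so their size depends on the prior count. That of Gypc rests on a batch B Sox2-positive group with 17 counts and 3 of 7 libraries at 0. The call for Bcl2l1 was lost under 20 of 33 alternatives, among them total-count scaling, the replicate block and most single left-out libraries (edgeR adjusted p up to 0.227). That for Fech was lost under 8, among them the omission of batch A Sox2-negative replicate 1, Sox2-positive replicate 2 or 5, or batch B Sox2-negative replicate 2 or 3 or Sox2-positive replicate 1 (up to 0.143). Calls for Lmo2, Ank1 and Tmod1 were lost under 3, 2 and 2 alternatives, in each case including the omission of batch B libraries 1 and 2, and for Lmo2 and Tmod1 the replicate block.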

How the results depend on the processing

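No list gene's log2 fold change that was called changed sign under the alternatives run, and none of the ratios between batches computed for 6 members crossed 1, while the balance of calls over all genes did turn. Of 91 calls for list genes over the 4 comparisons, 61 held under every alternative. Results not called were followed only for list genes that were named or were called in some comparison. Of 101 such results, 23 were called under at least 1 alternative. Without batch B libraries 1 and 2, the interaction count among list genes was 7 in place of 12, and over all genes 481 in place of 1210. The same omission took the count between batches in Sox2-negative cells from 1924 to 754 over all genes and from 14 to 10 among list genes, and limma-voom gave 3113 over all genes. With total-count scaling, which moved the median over all genes to -0.15 on the log2 scale, that count split into 661 higher and 1388 lower in place of 1005 and 919 (DESeq2 1143 and 1515), and the ratio of Hba-a1 between batches was 38.8 in place of 43.0. In batch A between populations, limma-voom gave 3617 higher and 3501 lower over all genes in place of 2752 and 3457. Leaving out 1 library at a time gave 27 to 31 list genes called in batch A, 35 to 41 in batch B, 10 to 13 for the interaction and 10 to 15 between batches. With the replicate number as a block, 29 list genes were called in batch A, 26 in batch B and 8 for the interaction (557 over all genes). Same-numbered libraries correlated between -0.0212 and 0.0444 in their deviations, and of the numbers examined only number 1 of batch A correlated best with its own partner. Batch and mice cannot be told apart, 3 of the 9 genes are near the floor in most libraries, and the copies within each globin pair cannot be fully separated.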
